A study of Mus musculus with 9 samples.

Results

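The genes described here encode the enzymes, carriers and organelle proteins of mitochondrial and peroxisomal fatty acid oxidation. A list of 37 was set by name, from the carnitine shuttle to peroxisome biogenesis, and 36 of them had a probe set that carries a single gene symbol, out of 19858 such genes on the array. Cpt1b, the muscle-type carnitine palmitoyltransferase, shares its listed probe set with another symbol and was not used. All 36 passed the intensity filter, a mean of at least 5.59 on the log2 scale, together with 13335 genes in all. The rule is a list of names with no threshold on the values, but the genes were chosen with earlier results of these data known. Their counts beside those of all genes are therefore a description and not an independent test.

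Cultures were grown from the interscapular brown fat of male C57BL/6 mice aged 5 weeks, starting with a fraction enriched in precursor cells. All were given insulin, at 50 nM from day 1, 100 nM from day 5 and 200 nM from day 7, and were collected after about 9 days. Each of 3 groups held 3 cultures with 1 array each: lysophosphatidic acid (LPA, given as 1-oleoyl-LPA) at 5 µM (subjects 7 to 9), the autotaxin inhibitor HA155 at 2.5 µM (subjects 4 to 6) and the vehicle DMSO as control (subjects 1 to 3). LPA is a signalling lipid that autotaxin, an enzyme released by cells, produces from lysophospholipids, so one treatment supplies the product and the other blocks its making. The labels put treatment at 9 days in vitro and the design text puts it during differentiation, so the length of exposure is unsettled. No genetic change was made in any group, and the labels name no batch, so batch and group cannot be told apart. Subjects were taken as separate cultures from their numbers, and 3 arrays a group limit the precision.

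Fatty acids enter the mitochondrion as carnitine esters, and each turn of beta oxidation then runs through an acyl-CoA dehydrogenase, a hydratase, a hydroxyacyl-CoA dehydrogenase and a thiolase. Electrons leave the dehydrogenases through the electron transfer flavoprotein. Peroxisomes shorten very long and branched chains, and by alpha oxidation they remove a single carbon from phytanic acid, a methyl-branched chain. In brown fat these pathways supply the fuel for heat production, and both organelles become abundant as brown adipocytes mature.

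The cultures carried adipocyte markers, but several markers of mature brown fat were dim. Ucp1, Dio2, Elovl3 and Cidea had means over all 9 arrays under the filter level, and Ucp1, the uncoupling protein, lay between 4.97 and 5.40 in all 9 arrays. Cidea, a lipid droplet protein of brown fat, passed that level with HA155 alone: it measured 4.78, 4.79 and 4.69 in LPA arrays, 6.53, 6.15 and 6.49 in HA155 arrays and 4.97, 5.10 and 4.67 in control arrays. In the fit without the filter Cidea was higher by 1.48 with HA155 (limma adjusted p = 0.00108). Of the 6 brown fat markers that could be tested 3 fell and 1 rose with LPA, and Cox7a1 and Cox8b, cytochrome oxidase isoforms of brown fat and muscle, rose with HA155. The summed intensity of the 10 listed was 1061 to 1225 in LPA arrays, 2569 to 2718 in HA155 arrays and 1740 to 1808 in control arrays. All 11 tested genes of the mature adipocyte list fell with LPA, with a median log2 change of -1.22. Their summed intensity was 22159 to 23343 in LPA arrays, 40896 to 42647 in HA155 arrays and 38963 to 40422 in control arrays. With HA155 2 of the 11 rose, Lep (0.66, limma adjusted p = 0.00257) and Cidec (0.65, limma adjusted p = 0.000756), and none fell. Preadipocyte and fibroblast markers moved the other way with LPA: 6 of 9 rose and 1 fell, and their summed intensity was 41785 to 44078 in LPA arrays, 30770 to 32968 in HA155 arrays and 33927 to 35551 in control arrays. With HA155 all 9 had a negative log2 change, of which 1 passed, Dlk1, a preadipocyte protein (-0.82, limma adjusted p = 0.000609). Of 14 tested skeletal muscle markers 9 rose with LPA, with sums of 2348 to 2832 in LPA arrays, 1782 to 1945 in HA155 arrays and 1755 to 1907 in control arrays, while Myod1, Myog and Pax7 did not pass (log2 change -0.027, 0.019 and -0.032). Macrophage markers summed to 705 to 1009 in LPA arrays, 916 to 1071 in HA155 arrays and 722 to 831 in control arrays, and of 6 endothelial markers 1 rose and 1 fell with LPA. Fewer adipocytes and less RNA per adipocyte cannot be told apart in these bulk samples, and the part of cell makeup in the results that follow was not tested.

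LPA lowered most of the pathway. Of the 36 genes 28 fell and none rose (limma adjusted p below 0.05, with Benjamini-Hochberg adjustment over all genes tested), where 10.8% of all genes tested fell and 12.2% rose. At an unadjusted limma p below 0.05 there were 30 lower and 0 higher. The share of all genes tested at an unadjusted p was not counted, here or below, so such counts have no background beside them. Their median log2 change was -0.71, a 1.63-fold lower level, against 0.0052 over all genes tested. The changes ran from -1.31 for Pex11a to 0.13 for Cpt1a. LPA and control arrays did not overlap in 29 of the 36, against 33.1% of all genes tested. With HA155 7 of 36 rose and none fell, where 0.607% of all genes tested rose and 0.427% fell. Leaving out any 1 control or HA155 array brought the 7 down to 2 or 3. At an unadjusted limma p below 0.05 there were 18 higher and 1 lower, again with no share of all genes to set beside them. The median with HA155 was 0.16, and HA155 and control arrays did not overlap in 26 of the 36, against 16.8% of all genes tested. Both comparisons use the same control arrays. Set directly against each other, LPA was below HA155 in 30 of 36 genes and above it in 1, where 12.4% of all genes tested were lower and 13.7% higher. LPA and HA155 arrays did not overlap in 33 of the 36, against 38.7% of all genes tested.

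**Figure D1:**
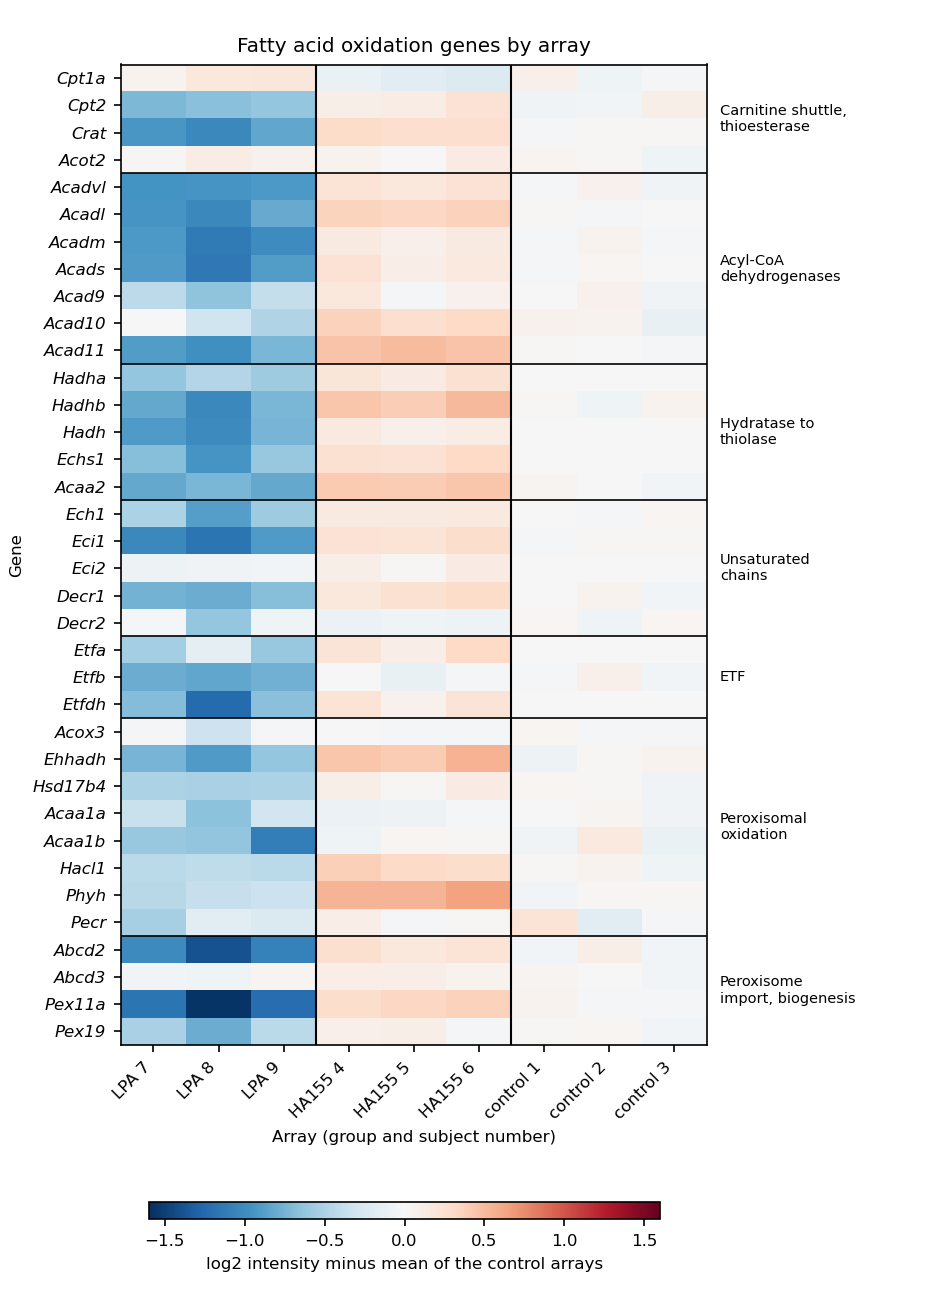
Log2 intensity of the 36 genes in each of the 9 arrays, as the difference from the mean of the control arrays (blue lower, red higher), with genes ordered by role down the page. The LPA arrays are blue in all but a few rows, such as Cpt1a, Acot2, Eci2 and Abcd3, while the HA155 arrays are pale red in most rows and deepest in Phyh.

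**Figure D2:**
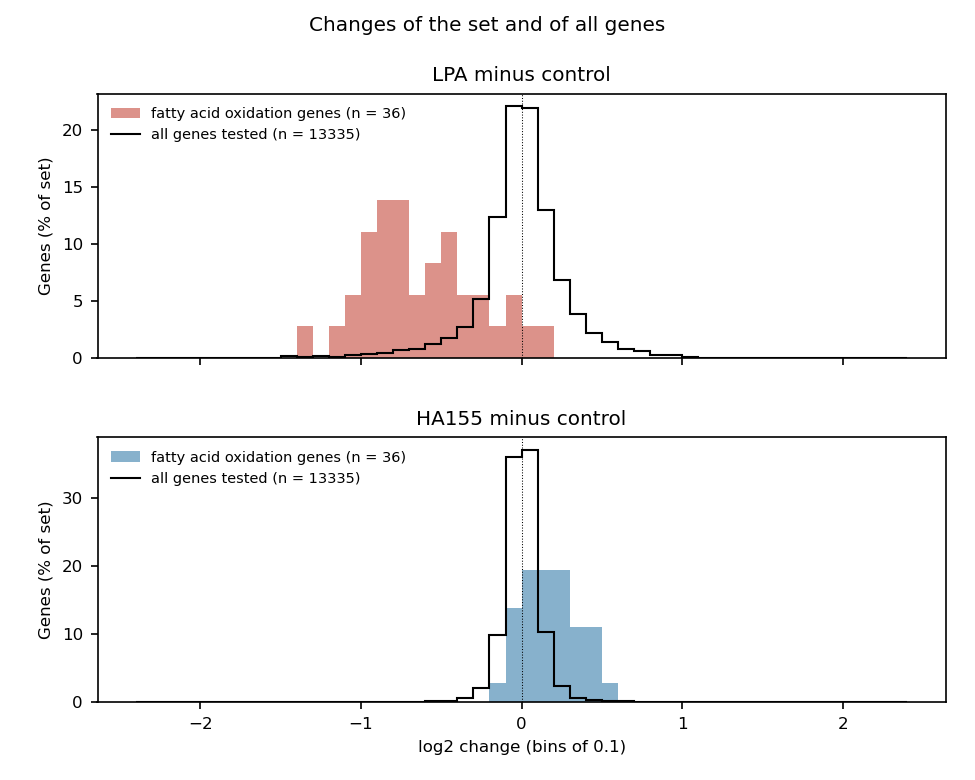
Share of genes in each bin of log2 change (x axis, bins of 0.1), filled for the 36 fatty acid oxidation genes and outlined for the 13335 genes tested, for LPA minus control (top) and HA155 minus control (bottom). With LPA the set lies to the left of the outline, with a median of -0.71; with HA155 it lies to the right, with a median of 0.16.

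One LPA array stood apart from its group in many of these genes. LPA array 8 gave the lowest of the LPA values in 23 of the 36 genes and the highest in 6. That count was not made over all genes tested, so it may hold for the array at large. The genes' median SD was 0.13 in the LPA group, 0.055 in the HA155 group and 0.048 in the control group. Over all genes tested it was 0.11, 0.054 and 0.074 in the same groups. Without array 8, 29 genes fell with LPA instead of 28, with a median of -0.66, and 11 rose with HA155 instead of 7, since that array enters the HA155 comparison through the pooled spread.

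Entry into the mitochondrion was split between the enzymes measured. Cpt1b, the muscle-type form, had no probe set of its own, so its response is unknown. Slc25a20, the carrier of carnitine esters and not a gene of the set, fell by 0.52 with LPA (limma adjusted p = 0.00313). With HA155 Slc25a20 measured 0.35 (limma adjusted p = 0.227). It was named after its values were seen. Cpt1a encodes the liver-type outer-membrane carnitine palmitoyltransferase, the regulated step of entry. It measured 8.86, 8.97 and 8.98 in LPA arrays, 8.70, 8.62 and 8.59 in HA155 arrays and 8.89, 8.73 and 8.79 in control arrays, all as log2 intensity. LPA and control arrays overlapped, and all HA155 arrays lay below both. The log2 change was 0.13 with LPA (SE 0.065, limma adjusted p = 0.184) and -0.17 with HA155 (SE 0.065, limma adjusted p = 0.489), neither past the threshold. LPA against HA155 gave 0.30 (limma adjusted p = 0.00548), and Cpt1a was the one gene of the set that was higher with LPA in that comparison.

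Cpt2, the inner-membrane partner that turns carnitine esters back to acyl-CoA, behaved otherwise. It measured 9.32, 9.37 and 9.43 in LPA arrays against 9.99, 10.00 and 10.14 in control arrays, with no overlap. The log2 change was -0.67 (SE 0.066, limma adjusted p = 3.5e-05). Crat, the carnitine acetyltransferase that buffers short acyl groups, was at 9.21, 9.12 and 9.31 in LPA arrays, 10.44, 10.42 and 10.42 in HA155 arrays and 10.11, 10.17 and 10.16 in control arrays. The 3 groups did not overlap. Crat fell by 0.93 with LPA (limma adjusted p = 2.05e-06), and with HA155 it measured 0.28, outside the threshold (limma adjusted p = 0.0644). Over 17 alternative fits the limma adjusted p of Crat with HA155 ran from 0.00649 to 0.274, and it passed in 6. Acot2, a mitochondrial thioesterase that releases free fatty acid from acyl-CoA, had overlapping groups in all comparisons, with means of 8.74 ± 0.055 in LPA, 8.74 ± 0.069 in HA155 and 8.68 ± 0.058 in control arrays (SD, n = 3 each). Its near-identical paralog Acot1 may share signal with it.

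The acyl-CoA dehydrogenases start each turn of the cycle, and 6 of 7 fell with LPA. The 4 enzymes of straight chains, Acadvl (very long), Acadl (long), Acadm (medium) and Acads (short), fell by similar amounts, between 0.93 and 1.02. Acadm measured 10.38, 10.17 and 10.30 in LPA arrays, 11.45, 11.39 and 11.45 in HA155 arrays and 11.28, 11.36 and 11.27 in control arrays. Every LPA array lay far below every other array, a 2.03-fold lower mean than in control (log2 change -1.02, SE 0.066, limma adjusted p = 1.86e-06). Acadvl measured 9.10, 9.12 and 9.14 in LPA arrays against 10.04, 10.13 and 10.01 in control arrays, the tightest LPA values of the 4, and fell by 0.94 (SE 0.055, limma adjusted p = 9.77e-07). Acads fell by 0.98, and its array 8 value of 8.77 was below the other two LPA values of 9.00 and 9.02.

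Acadl and Acad11 also rose with HA155. Acadl measured 9.73, 9.64 and 9.87 in LPA arrays, 11.03, 11.01 and 11.05 in HA155 arrays and 10.70, 10.66 and 10.67 in control arrays. Its 3 groups were separate, with log2 changes of -0.93 for LPA (limma adjusted p = 3.64e-06) and 0.35 for HA155 (SE 0.066, limma adjusted p = 0.034). Acad11, an acyl-CoA dehydrogenase of hydroxylated fatty acids, measured 7.96, 7.87 and 8.13 in LPA arrays, 9.31, 9.36 and 9.31 in HA155 arrays and 8.88, 8.85 and 8.84 in control arrays. Its groups were also separate, with changes of -0.87 (limma adjusted p = 8.5e-06) and 0.47 (SE 0.069, limma adjusted p = 0.00976). The Acadl call for HA155 was lost in 8 of 17 alternative fits and that of Acad11 in 3 (without control 2 or HA155 array 4 or 5).

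Acad9, which is also an assembly factor of respiratory complex I, fell by 0.48 with LPA (limma adjusted p = 0.00141) and measured 0.068 with HA155. Acad10, a less studied member, measured 6.34, 6.02 and 5.86 in LPA arrays, 6.71, 6.61 and 6.65 in HA155 arrays and 6.40, 6.39 and 6.22 in control arrays. Its LPA and control arrays overlapped (log2 change -0.26, limma adjusted p = 0.106). HA155 and control arrays did not overlap, though the difference of 0.32 did not pass (limma adjusted p = 0.355), whereas LPA was below HA155 by 0.58 (limma adjusted p = 0.00192).

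All 5 enzymes of the later mitochondrial steps fell with LPA, by 0.55 to 0.89. Hadha and Hadhb encode the alpha and beta subunits of the trifunctional protein, which carries out the later steps on long chains. Hadhb measured 10.08, 9.87 and 10.16 in LPA arrays, 11.34, 11.29 and 11.42 in HA155 arrays and 10.91, 10.83 and 10.95 in control arrays. Hadha measured 9.99, 10.13 and 10.04 in LPA arrays, 10.80, 10.73 and 10.85 in HA155 arrays and 10.61, 10.60 and 10.60 in control arrays. Both subunits had separate groups, lowest with LPA and highest with HA155. Hadhb fell by 0.86 with LPA (SE 0.079, limma adjusted p = 1.95e-05) and rose by 0.45 with HA155 (limma adjusted p = 0.0244). Its second probe set gave -0.86 and 0.46 but followed the first closely in every array, with 10.01, 9.81 and 10.10 in LPA arrays. The 2 probe sets may share signal, so the second is not counted as a separate measurement. Hadha fell by 0.55 with LPA (SE 0.059, limma adjusted p = 6.5e-05) and measured 0.19 with HA155 (limma adjusted p = 0.279). The Hadhb call for HA155 was lost without any 1 of the control or HA155 arrays (adjusted p up to 0.141).

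The change of the Hadhb signal relative to that of Hadha was examined after these values were seen. The log2 ratio of Hadhb over Hadha changed by -0.32 with LPA and by 0.26 with HA155, without overlap with control in either case. The exact permutation test gave p = 0.1 for both, two-sided, which is the smallest value that 3 arrays against 3 allow. The 2 genes lie head to head, and their RefSeq starts are 272 bases apart in GRCm38.p6, so that 228 bases belong to the promoter window of both.

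Most of the sequence between the starts of Hadha and Hadhb is shown because both subunits are read outward from it. The promoters of Echs1 and Etfa are shown for another reason. Of the 29 genes with a promoter at hand, only these 2 held a match to a nuclear receptor motif in the window searched. Each runs 5′ to 3′ on the strand of the named gene, covers the 250 bases before its RefSeq start in GRCm38.p6, and has the match to the motif in capitals; the first has none.
Hadhb, chr5:30155003-30155252, plus strand: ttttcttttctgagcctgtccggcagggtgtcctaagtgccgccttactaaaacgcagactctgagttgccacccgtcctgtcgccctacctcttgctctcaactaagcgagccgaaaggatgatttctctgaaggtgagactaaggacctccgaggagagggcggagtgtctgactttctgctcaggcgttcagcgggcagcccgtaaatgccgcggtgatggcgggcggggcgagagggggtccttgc
Echs1, chr7:140116422-140116671, minus strand: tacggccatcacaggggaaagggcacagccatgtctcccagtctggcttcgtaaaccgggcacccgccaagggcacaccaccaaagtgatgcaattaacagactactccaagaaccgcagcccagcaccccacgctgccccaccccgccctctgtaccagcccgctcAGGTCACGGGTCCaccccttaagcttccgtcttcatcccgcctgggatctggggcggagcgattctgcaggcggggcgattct
Etfa, chr9:55512244-55512493, minus strand: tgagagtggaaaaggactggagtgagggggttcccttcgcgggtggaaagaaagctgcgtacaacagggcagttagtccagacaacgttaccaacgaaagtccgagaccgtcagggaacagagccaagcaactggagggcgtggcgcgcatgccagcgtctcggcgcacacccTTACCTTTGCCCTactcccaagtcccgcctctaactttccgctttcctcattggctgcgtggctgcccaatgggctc

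The motif searched was the direct repeat bound by PPAR with RXR, AGGTCA followed by any 1 base and by AGGTCA again, with at most 2 mismatches, on both strands and over 250 bases before to 50 bases after the start. Promoters were at hand for 29 of the 37 genes, as 30 sequences, and 2 of them held a match, both with 2 mismatches. A match was found in 3.86% of all 32851 RefSeq promoters of the same length. In Echs1 it lies at -83 to -71 on the gene's strand, and in Etfa at -77 to -65 on the opposite strand. An exact match to TNAAGGTCA, the estrogen-related receptor type of site, was in 0 of the 30 and in 1.28% of all promoters; the motifs share the letters AGGTCA and can overlap. No sequence was at hand for Cpt1b, Crat, Acad9, Acaa2, Decr1, Hsd17b4, Abcd2 and Pex19.

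Acaa2, the mitochondrial thiolase that splits off acetyl-CoA, had one of the steadiest responses to HA155. It measured 9.42, 9.51 and 9.42 in LPA arrays, 10.66, 10.64 and 10.68 in HA155 arrays and 10.29, 10.23 and 10.20 in control arrays. The 3 groups were far apart for their spread, with changes of -0.79 for LPA (limma adjusted p = 3.62e-06) and 0.42 for HA155 (SE 0.056, limma adjusted p = 0.00566). The HA155 call held in all 17 alternative fits. Echs1, the short-chain enoyl-CoA hydratase, fell by 0.74 with LPA, and with HA155 it measured 0.26 (limma adjusted p = 0.279). Over the 17 alternative fits that adjusted p ran from 0.0269 to 0.733, and Echs1 passed in 3. Hadh, the short-chain hydroxyacyl-CoA dehydrogenase, fell by 0.89 with LPA and measured 0.12 with HA155.

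**Figure D3:**
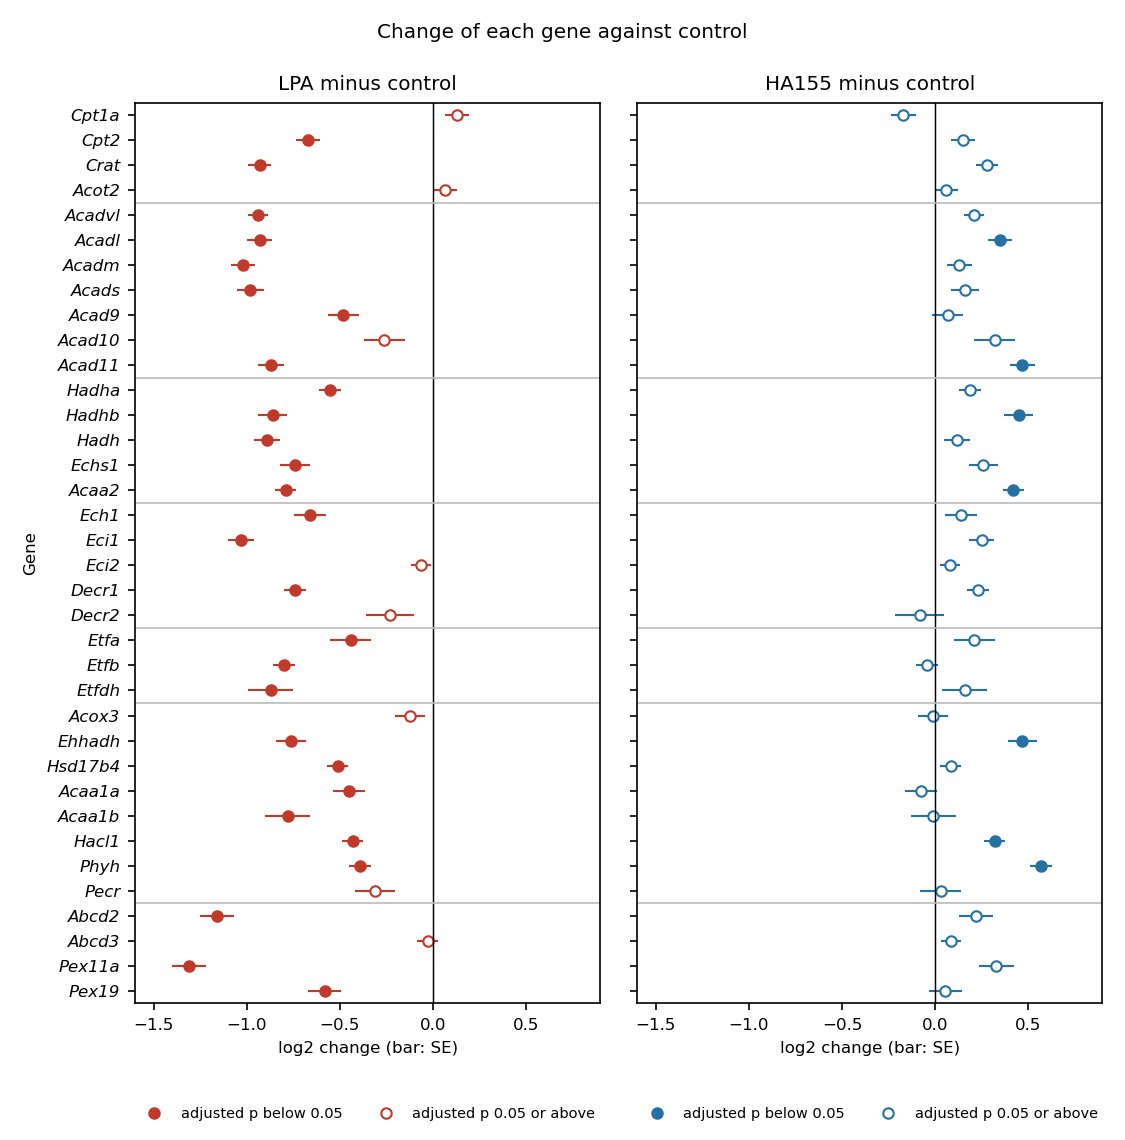
Log2 change of each gene, LPA minus control on the left and HA155 minus control on the right, with bars for the standard error and filled circles for a limma adjusted p below 0.05. With LPA 28 circles are filled, all left of 0, and with HA155 7 are filled, all right of 0; grey lines separate the roles.

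Of 5 enzymes that prepare unsaturated chains 3 fell with LPA. Eci1, the mitochondrial enoyl-CoA isomerase, measured 8.41, 8.27 and 8.53 in LPA arrays against 9.41, 9.45 and 9.45 in control arrays. It fell by 1.03, or 2.05-fold (SE 0.069, limma adjusted p = 2.33e-06). Eci2, an isomerase found in peroxisomes as well, measured 8.75, 8.77 and 8.78 in LPA arrays against 8.83, 8.82 and 8.83 in control arrays, a difference of -0.064 that did not pass (limma adjusted p = 0.442). The log2 ratio of Eci1 over Eci2 changed by -0.97 with LPA and 0.17 with HA155, with no overlap in either comparison (exact permutation p = 0.1 each, the smallest possible, and 0.109 after adjustment over 4 pairs and 3 comparisons).

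Of the dienoyl-CoA reductases, Decr1, the mitochondrial form, fell by 0.74 with LPA (limma adjusted p = 8.62e-06) and measured 0.23 with HA155 (limma adjusted p = 0.145). Decr2, the peroxisomal form, measured 9.22, 8.63 and 9.18 in LPA arrays, 9.15, 9.17 and 9.16 in HA155 arrays and 9.27, 9.18 and 9.28 in control arrays. Array 8 alone made the LPA mean low: the change was -0.23 (limma adjusted p = 0.224) with it and -0.045 (limma adjusted p = 0.619) without it. The log2 ratio of Decr1 over Decr2 changed by -0.51 with LPA, and by -0.67 when array 8 was left out. Ech1, a dienoyl-CoA isomerase, fell by 0.66 with LPA (limma adjusted p = 0.000243).

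The electron transfer flavoprotein hands the electrons of the acyl-CoA dehydrogenases to the respiratory chain. All 3 genes fell with LPA, while with HA155 the log2 change was 0.21 for Etfa, -0.043 for Etfb and 0.16 for Etfdh, none of which passed. Etfdh, the membrane dehydrogenase that passes electrons to ubiquinone, measured 10.41, 9.87 and 10.43 in LPA arrays, 11.32, 11.17 and 11.31 in HA155 arrays and 11.10, 11.11 and 11.10 in control arrays. Its fall of 0.87 (SE 0.12, limma adjusted p = 0.000444) became 0.69 (limma adjusted p = 4.12e-05) without array 8. Etfa, the alpha subunit, had the opposite array 8 value, with 10.32, 10.71 and 10.26 in LPA arrays against 10.87, 10.86 and 10.88 in control arrays. It fell by 0.44 (limma adjusted p = 0.0112), or by 0.58 without array 8. Etfb, the beta subunit, showed no such array, at 10.13, 10.09 and 10.15 in LPA arrays, and fell by 0.80 (limma adjusted p = 5.34e-06).

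Of the 8 peroxisomal oxidation genes 6 fell with LPA, with a median log2 change of -0.44, and 3 rose with HA155. Phyh hydroxylates phytanoyl-CoA in the first step of alpha oxidation, and Hacl1 is the lyase that then removes a single carbon. Phyh measured 8.63, 8.71 and 8.74 in LPA arrays, 9.62, 9.62 and 9.72 in HA155 arrays and 9.04, 9.10 and 9.10 in control arrays. The HA155 side was the wider gap, with a rise of 0.57, or 1.49-fold (SE 0.059, limma adjusted p = 0.00112), and a fall of 0.39 with LPA (SE 0.059, limma adjusted p = 0.000603). The Phyh rise was the largest of the 36 genes with HA155 and held in all 17 alternative fits. Hacl1 measured 8.08, 8.11 and 8.08 in LPA arrays, 8.90, 8.82 and 8.80 in HA155 arrays and 8.53, 8.57 and 8.44 in control arrays. It fell by 0.43 with LPA (limma adjusted p = 0.000319) and rose by 0.32 with HA155 (limma adjusted p = 0.0298), a call lost in 7 of 17 alternative fits.

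Among peroxisomal beta oxidation enzymes, Ehhadh responded in both comparisons. This bifunctional hydratase and dehydrogenase, known as a target of PPAR alpha in liver, measured 6.64, 6.48 and 6.77 in LPA arrays, 7.83, 7.79 and 7.94 in HA155 arrays and 7.31, 7.41 and 7.45 in control arrays. The groups were separate, with changes of -0.76 for LPA (limma adjusted p = 5.21e-05) and 0.47 for HA155 (SE 0.08, limma adjusted p = 0.024), the second lost without any 1 of the control or HA155 arrays (adjusted p up to 0.136). Hsd17b4, the other bifunctional enzyme and the one for branched chains, was at 9.84, 9.82 and 9.84 in LPA arrays against 10.38, 10.36 and 10.29 in control arrays and fell by 0.51 (limma adjusted p = 7.19e-05). With HA155 it measured 0.084.

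The log2 ratio of Hadha over Hsd17b4, which carry out like steps in mitochondria and peroxisomes, changed by -0.039 with LPA (exact permutation p = 0.5, 0.5 adjusted) with overlapping arrays. With HA155 it changed by 0.11, and LPA against HA155 gave -0.15, both without overlap (exact permutation p = 0.1 each, 0.109 adjusted). The peroxisomal thiolases Acaa1a and Acaa1b fell by 0.45 (limma adjusted p = 0.00318) and 0.78 (limma adjusted p = 0.000795). These near-identical paralogs may share signal, so their difference is uncertain. The log2 ratio of Acaa2 over Acaa1a changed by -0.34 with LPA and 0.49 with HA155 (exact permutation p = 0.1 each, 0.109 adjusted). In array 8 this ratio was 1.61, against 1.61 to 1.71 in control arrays. Acox3, an oxidase of branched chains, and Pecr, an enoyl-CoA reductase, did not pass with LPA (log2 change -0.12 and -0.31, limma adjusted p = 0.32 and 0.0715).

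**Figure D4:**
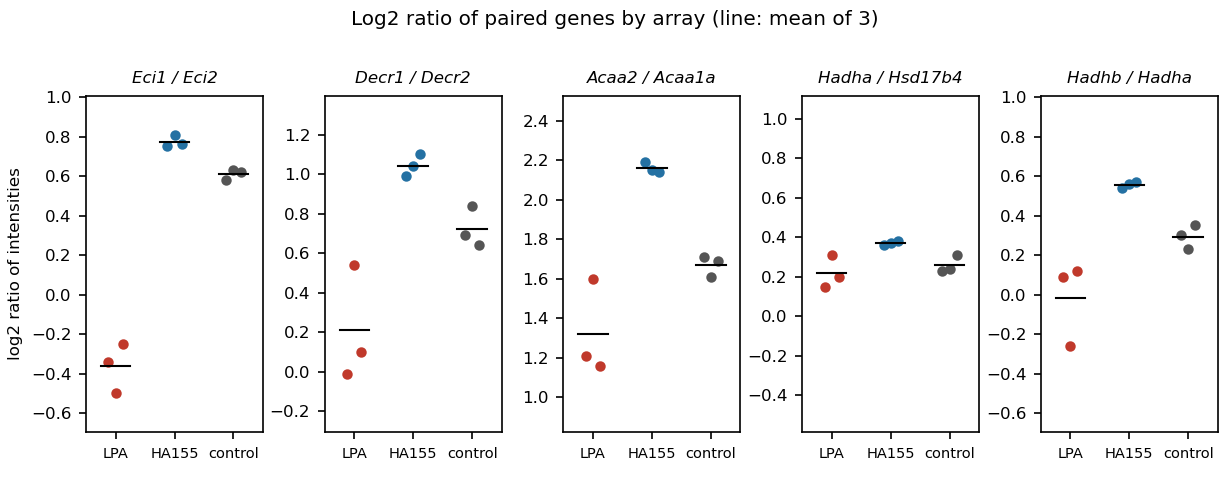
Log2 ratio of intensities of 5 gene pairs in each array, with a line at each group's mean; the level of a ratio depends on the probes and only its change between groups is read. Eci1 over Eci2 lies between -0.50 and -0.25 in LPA arrays, between 0.75 and 0.81 in HA155 arrays and between 0.58 and 0.63 in control arrays, while Hadha over Hsd17b4 overlaps between LPA and control.

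Genes of peroxisomal import and biogenesis held both the largest and the smallest change of the set with LPA. Pex11a, which promotes the division of peroxisomes, measured 7.59, 7.19 and 7.54 in LPA arrays, 9.04, 9.08 and 9.12 in HA155 arrays and 8.81, 8.72 and 8.73 in control arrays. It fell by 1.31, or 2.47-fold, with LPA (SE 0.093, limma adjusted p = 3.88e-06) and by 1.18 without array 8. With HA155 every array lay above control, but the difference of 0.33 did not pass (limma adjusted p = 0.217). Over 17 alternative fits that adjusted p ran from 0.01 to 0.606, and Pex11a passed in 3. Pex19, the receptor that brings membrane proteins to the peroxisome, fell by 0.58 with LPA (limma adjusted p = 0.000656).

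The transporters of very long acyl chains into peroxisomes differed from each other. Abcd2 measured 8.84, 8.46 and 8.78 in LPA arrays, 10.12, 10.03 and 10.08 in HA155 arrays and 9.81, 9.95 and 9.82 in control arrays. It fell by 1.16, or 2.24-fold, with LPA (limma adjusted p = 8.4e-06) and measured 0.22 with HA155 (limma adjusted p = 0.573). Abcd3, an abundant peroxisomal membrane protein, measured 9.78, 9.75 and 9.86 in LPA arrays against 9.86, 9.83 and 9.77 in control arrays, and these overlapped (log2 change -0.026, limma adjusted p = 0.788).

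**Figure D5:**
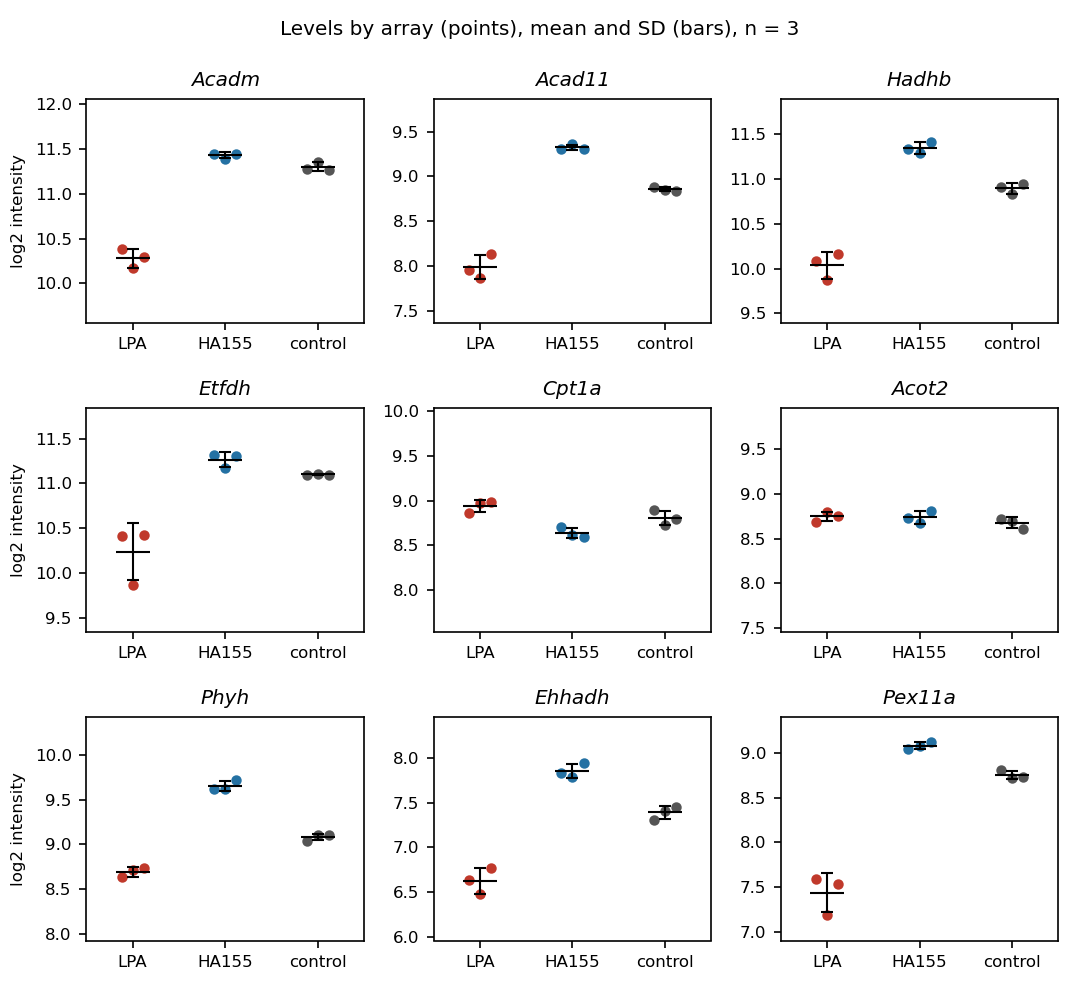
Log2 intensity of 9 genes by array, with points for arrays and bars for the mean and SD of 3, each panel spanning 2.5 log2 units. Acad11, Hadhb, Phyh and Ehhadh show 3 separate levels, highest with HA155; Acadm and Pex11a are set apart mainly by the low LPA arrays; Cpt1a and Acot2 stay within a narrow band.

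Other genes of the pathway outside the 37 were looked at as well. The 37 were chosen with earlier results of these data known, so a contrast with the genes left out is no test. Of 20 tested genes of a second oxidation list 8 fell with LPA and 1 rose, with a median log2 change of -0.21. The log2 change was negative in 18 of the 20, and in 34 of the 36 genes of the set. The 4 with the smallest p were Nudt7, a peroxisomal hydrolase of coenzyme A (-0.79), Dbi, the acyl-CoA binding protein (-0.64), the acetoacetyl-CoA thiolase Acat1 (-0.60) and Scp2, which holds a peroxisomal thiolase (-0.76). The 1 that rose was Acsl5, an acyl-CoA synthetase (0.29, limma adjusted p = 0.0147), named after its value was seen. With HA155 1 of the 20 rose, Nudt7 (0.36, limma adjusted p = 0.0241). Of 11 further peroxins 8 fell with LPA and none rose. The 4 with the smallest p were Pex16 (-1.08), Pex13 (-0.52), Pex5 (-0.58) and Pex6 (-0.35), and none passed with HA155 (limma; 1 higher at an unadjusted p below 0.05). Of the tested ketone body genes Oxct1, which activates ketone bodies for use as fuel, fell by 0.57 with LPA (limma adjusted p = 0.000472) and Bdh2 rose by 0.45 (limma adjusted p = 0.0361).

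Among 15 regulators of the pathway 9 fell with LPA and none rose, with a median of -0.41, where 10.8% of all genes tested fell and 12.2% rose. At an unadjusted limma p below 0.05 there were 9 lower and 0 higher, with no share of all genes to set beside them. Acacb makes the malonyl-CoA that restrains carnitine palmitoyltransferase, and it fell by 0.92 with LPA (limma adjusted p = 2.65e-06) and rose by 0.68 with HA155 (limma adjusted p = 0.000609). Prkaa2, a catalytic subunit of AMP-activated kinase, fell by 0.91, Pparg by 0.46 and the coactivator Ppargc1b by 0.68 with LPA. Ppara, the receptor best known for control of fatty acid oxidation, measured 6.49, 6.41 and 6.25 in LPA arrays, 6.92, 6.99 and 6.98 in HA155 arrays and 6.67, 6.67 and 6.33 in control arrays. Its LPA and control arrays overlapped, and neither the LPA difference of -0.18 nor the HA155 difference of 0.41 passed (limma adjusted p = 0.228 and 0.0991), while LPA was below HA155 by 0.58 (limma adjusted p = 0.000928). Pdk4, the kinase that holds back glucose oxidation when fat is burned, fell by 0.66 with LPA (limma adjusted p = 0.00089) and rose by 0.53 with HA155 (limma adjusted p = 0.0429). The LPA value of Pdk4 lies outside the 4 smallest p of the list and was added after it was seen.

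With LPA set against HA155, the largest differences were in Pex11a (-1.64, 3.11-fold), Abcd2 (-1.38, 2.61-fold), Acad11 (-1.34, 2.53-fold) and Hadhb (-1.32, 2.49-fold). The median over the 36 genes was -0.81. Acot2, Eci2, Decr2, Acox3 and Abcd3 did not pass in any of the 3 comparisons. Their estimates for LPA against HA155 ran from -0.15 to 0.0065.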

How the data were processed

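RNA from 9 cultures was measured on Affymetrix arrays, 1 array a culture. The authors deposited an intensity for each probe set, computed with RMA per the submitters' processing notes, in a version not given in the sources used. The values themselves show a linear scale. RMA corrects background and makes the arrays' distributions alike, so a global shift would be removed, and changes of dim probes are compressed.

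Values were log2-transformed without an offset. The platform annotation gave 21706 of 35432 probe sets a single symbol, gave 1605 several, and did not list the other 12121. The brightest probe set stood for a gene. Genes with a mean under the 40th percentile of all probe sets (log2 5.59) were left out. limma 3.58.1 in R 4.3.3 (lmFit, eBayes) was fitted to the 9 arrays together (6 residual degrees of freedom), two-sided, with Benjamini-Hochberg adjustment over 13335 genes at 0.05. The number of arrays limits precision; the median SE for LPA against control was 0.076. The labels give every array its own subject number, taken here as a separate culture, and the p-values compare these. The subject numbers alone do not tell whether cultures shared a cell preparation. The Cpt1b pair of the planned ratios could not be formed. Alternatives were 8 other settings and leaving out each array. The procedure was also run on simulated data with the same spread in all groups. The measured groups differed in spread, so that run does not bear on the stability of the HA155 calls. Promoters are from RefSeq (GRCm38.p6). Every listed gene is accounted for; of other lists the 4 smallest p per comparison, and markers, could be named. The genes and lists were chosen with earlier results of these data known.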

Additional observations from a re-analysis of the deposited data

How the results depend on the processing

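All 28 falls with LPA held in each of 17 alternative fits, and the number of falls was 28 to 29. The median with LPA was -0.73 to -0.66. For LPA against HA155 30 of 31 calls held in all 17, the exception being Pecr, lost in 7, and the number lower was 29 to 30. The HA155 rises were less stable: 7 genes rose in the fit described, 11 when the 2 groups compared entered alone, 12 with array weights and 2 to 11 when 1 array was left out. They were 3, 2 and 3 without control array 1, 2 and 3, 3 without HA155 array 6, 2 without HA155 array 4 or 5 and 11 without LPA array 8. Of the 7, Acaa2 and Phyh rose in all 17 fits, and the HA155 median stayed between 0.15 and 0.20. The cause was not tested beyond the construction of these fits, which have fewer arrays or another estimate of the spread. No gene of the 36 changed direction with a call under any setting. No paired analysis was possible because the subject numbers differ between the groups. Depth is not defined for arrays; all 36 genes had a mean above the filter level of 5.59.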
